A study of Sus scrofa with 36 samples.

Results

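C1QA, C3, C4A and CD55 were followed across the feeding groups and set codes of piglet hippocampus arrays. C1QA, C3 and C4A encode complement components, and CD55 encodes a membrane regulator of the cascade. The members were taken as all probe sets that the array annotation ties to exactly 1 gene symbol, that symbol being 1 of these 4. They were 4 of the 6765 genes named in this way, and 8 of the 23999 probe sets on the array. C1QA, C3 and C4A had 1 probe set each and CD55 had 5.

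Complement is a chain of plasma and cell-surface proteins in which recognition of a target leads to cleavage of C4 and then of C3, the step on which all activation routes converge. In the brain, microglia are a main source of C1q, and C1q and C3 tag synapses that microglia remove during postnatal development. Host cells carry regulators such as CD55 (decay-accelerating factor), which takes apart the convertase enzymes that cleave C3.

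The 36 arrays held hippocampal RNA of male Landrace by Large White piglets, with 12 arrays in each of 3 feeding groups. The piglets were reared from day 3 and sampled on postnatal day 38. All were fed a milk replacer. Control piglets received only its basal lactoferrin, an iron-binding milk protein, and the other groups received a replacer with lactoferrin added: 0.6 g/L in the medium-dose group and 1.2 g/L in the high-dose group. The labels do not quantify the basal level, and they name no genetic change or other agent in any group. The sample names include a set code, from S1 to S5 (5 codes), that the labels leave unexplained. Set S1 comprised 2 control and 2 high-dose samples and no medium-dose sample. The labels do not state that each array is a different animal, so p-values measure the spread between these 36 samples.

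Values are log2 probe set levels, so a difference of 1 is a doubling, and levels of different probe sets are not comparable with each other. A probe set was tested where its mean reached the 25th percentile of all probe sets, a log2 value of 4.92, which left 18006. Array medians lay between 6.6 and 6.7. Each array's average correlation with the rest ranged from 0.9797 to 0.9929. The neuron markers that could be measured, 7 genes, had means between 10.44 and 11.61 in every array. The polyadenylated spike-in control Dap was absent from 3 control, 3 medium-dose and 4 high-dose arrays. The 3′ minus 5′ difference of the GAPDH control probe sets, a sign of RNA integrity, was 0.98 ± 0.19, 0.94 ± 0.12 and 0.96 ± 0.16 (SD, n = 12) in control, medium-dose and high-dose samples. High-dose replicate 2 stood apart, with the lowest average correlation (0.9797) and the highest level of the hybridisation control bioB (9.8). It also lacked Dap and had the lowest neuron mean (10.44) and the highest oligodendrocyte mean (11.35). In tissue pieces of mixed cells, fewer cells of a type and less RNA per cell cannot be told apart.

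Of the 8 member probe sets, 5 passed the filter: those of C1QA, C3 and C4A, and 2 of the 5 for CD55. C4A varied more between samples than nearly all tested probe sets, with its SD at percentile 99.4. The SDs of the leading CD55 probe set (the one with the highest mean), C3 and C1QA lay at percentiles 96.2, 93.1 and 84.5. In limma with Benjamini-Hochberg adjustment, none of the 5 passed at 0.05 in any comparison of feeding groups, where 0% of the 18006 probe sets passed. At an unadjusted p under 0.05, 2 of the 5 lay lower with the medium dose (C4A and CD55), and none lay higher. Of all tested, 3.15% lay lower and 3.78% higher at that threshold, or 6.93% in either direction. With the high dose 2 of the 5 lay lower (C1QA and CD55) and none higher, against 2.17% lower and 2.77% higher of all tested, or 4.94% in either direction. All 5 had fitted differences below 0 at each dose, against 49.7% of all tested at the medium dose and 50.3% at the high dose. With each of the 36 samples left out in turn, the unadjusted p of CD55 with the medium dose never exceeded 0.000627. That of C4A with the medium dose was 0.05 or more in 4 of the 36 fits, without control replicate 4, 9 or 10 or medium-dose replicate 8. At the high dose C1QA reached 0.05 or more in 3 (without control replicate 3 or 9 or high-dose replicate 2) and CD55 in 2 (without control replicate 3 or 10). The doses share their control samples, so the signs at the doses are not independent of each other. Nor are the 5 signs at 1 dose. The 2 CD55 probe sets correlated at Pearson r = 0.655 over the samples, and C3 and C4A at 0.605. The members were also chosen with earlier results of these data known, so the counts are a description and not a test.

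**Figure D1:**
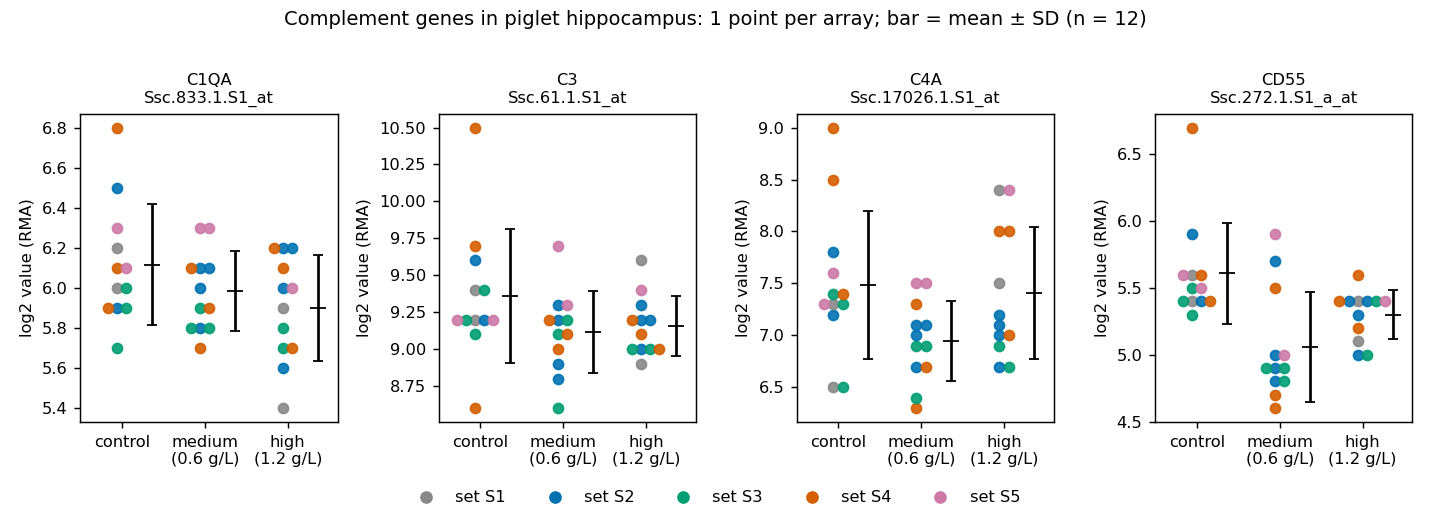
Log2 level (y axis) of the leading probe set of C1QA, C3, C4A and CD55 in control, medium-dose and high-dose samples (x axis). Each point is 1 array and bars show the mean ± SD (n = 12). For CD55, 9 of 12 medium-dose points lie below the lowest control at 5.3, while the groups overlap widely for C3.

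C1QA encodes a chain of C1q, the recognition protein that starts the classical pathway. Its level in controls had a lowest value of 5.7, a median of 6.05 and a highest value of 6.8. Medium-dose samples ran from 5.7 to 6.3 with a median of 5.95. High-dose samples ran from 5.4 to 6.2, also with a median of 5.95. All medium-dose samples lay inside the control range, and 2 high-dose samples lay below it, a count whose share over all tested probe sets was not computed. The means were 6.12 ± 0.30, 5.98 ± 0.20 and 5.90 ± 0.26 (SD, n = 12 each). The high-dose difference from control was -0.23 on the log2 scale (SE 0.09, 95% interval from -0.42 to -0.04) (limma, unadjusted p = 0.0205, adjusted p = 0.976). The medium-dose difference was -0.17 (SE 0.10, 95% interval from -0.36 to 0.03), with unadjusted p = 0.0864. The difference between the doses was -0.06. Control replicate 9 held the highest value, and without it the differences were -0.16 (unadjusted p = 0.0581) at the high dose and -0.10 at the medium dose.

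C4A encodes complement C4, which C1s cleaves and whose larger fragment binds the target surface. Its control values had a lowest of 6.5, a median of 7.35 and a highest of 9.0. Medium-dose values ran from 6.3 to 7.5 with a median of 6.95. Of these 12 samples, 10 lay below the control median and 2 below the lowest control. The share of all tested probe sets with such counts was not computed, so they are a description only. High-dose values ran from 6.7 to 8.4 with a median of 7.15, all within the control range. The group means were 7.48 ± 0.71, 6.95 ± 0.38 and 7.41 ± 0.63 (SD, n = 12 each).

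The C4A difference of the medium dose from control was -0.51 (SE 0.21, 95% interval from -0.95 to -0.08), a fold of 0.702 (limma, unadjusted p = 0.0226, adjusted p = 0.659). The high-dose difference was -0.05 (SE 0.21, 95% interval from -0.48 to 0.38). High dose minus medium dose was 0.46 (SE 0.21, 95% interval from 0.03 to 0.90) (limma, unadjusted p = 0.0373, adjusted p = 0.811). C4A was the only member probe set higher at an unadjusted p under 0.05 in that contrast, where 2.48% of all tested were higher and 3.49% lower (5.98% in all), and no member was lower. In the test of any difference among the 3 groups, C4A (unadjusted p = 0.0431) and CD55 (unadjusted p = 0.00083) were under 0.05, against 5.89% of all tested. The size of the medium-dose difference changed with the samples left out. It was -0.38 without control replicate 9 (limma, unadjusted p = 0.0631) and -0.43 without control replicate 10 (unadjusted p = 0.0511). Both are S4 controls, and without both it was -0.25. Without medium-dose replicate 8, also of S4, it was -0.41 (limma, unadjusted p = 0.0587). Without control replicate 4, of S2, it was -0.45 (limma, unadjusted p = 0.0509). Without set S4, its medium-dose and high-dose samples included, it was -0.14. High dose minus medium dose had an unadjusted p of 0.05 or more for 9 of the 36 samples when each was left out, up to 0.0942.

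C3 encodes the central component, whose cleavage gives the opsonin C3b and the peptide C3a. Control values ran from 8.6 to 10.5 with a median of 9.2. Medium-dose values ran from 8.6 to 9.7 and high-dose values from 8.9 to 9.6, each with a median of 9.15. Every supplemented sample lay inside the control range. The means were 9.36 ± 0.45, 9.12 ± 0.28 and 9.16 ± 0.20 (SD, n = 12 each). The differences from control were -0.24 (SE 0.13, 95% interval from -0.51 to 0.03, unadjusted p = 0.0854) for the medium dose and -0.20 (SE 0.13, 95% interval from -0.47 to 0.07, unadjusted p = 0.141) for the high dose. Without control replicate 9, which held the value of 10.5, they were -0.12 and -0.09. High dose minus medium dose was 0.04.

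CD55 encodes decay-accelerating factor, the regulator among the members. On its leading probe set, controls ran from 5.3 to 6.7 with a median of 5.5. Medium-dose samples ran from 4.6 to 5.9 with a median of 4.9. High-dose samples ran from 5.0 to 5.6 with a median of 5.4. In the medium-dose group 9 of 12 samples lay below every control and 2 lay above the control median. At least as many medium-dose samples below the lowest control were seen in 2 of 18006 probe sets (0.0111%), this one included. The cut was the count of this probe set itself, here and for the high dose, so these shares are a description and not a test. In the high-dose group 4 of 12 lay below every control, which 1.44% of all tested reached, and 11 lay below the control median. For counts set against the control median no share of all tested was computed.

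The CD55 means were 5.61 ± 0.38 in control, 5.06 ± 0.41 in medium-dose and 5.30 ± 0.19 in high-dose samples (SD, n = 12 each). The medium-dose difference was -0.57 (SE 0.14, 95% interval from -0.84 to -0.29), a fold of 0.675. Its unadjusted p of 0.000191 ranked 8 of 18006, and its adjusted p was 0.407 in limma, so it did not pass. The high-dose difference was -0.31 (SE 0.13, 95% interval from -0.58 to -0.04) (limma, unadjusted p = 0.025, adjusted p = 0.976). High dose minus medium dose was 0.25 (SE 0.14, 95% interval from -0.02 to 0.53), with unadjusted p = 0.0688, so an order of the doses was not resolved. Over 56 alternative fits the medium-dose difference stayed between -0.67 and -0.42. Without control replicate 10, which held the value of 6.7, it was -0.46, and the high-dose difference was -0.21 (unadjusted p = 0.0708).

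The other CD55 probe sets differed in size. The second one tested had means of 5.23 ± 0.26, 5.14 ± 0.19 and 5.14 ± 0.25 (SD, n = 12 each) in control, medium-dose and high-dose samples, with differences of -0.10 (SE 0.09, unadjusted p = 0.242) and -0.09 (SE 0.09, unadjusted p = 0.32). The remaining 3 had means of 3.64, 3.27 and 3.11 and were left out by the filter, so their values come from a fit without it. In that fit the brightest of the 3 had medium-dose and high-dose differences of -0.19 and -0.15. The next had -0.10 and -0.23, the latter at an unadjusted p of 0.035, and the dimmest had -0.01 and -0.02. All 5 CD55 probe sets thus had differences below 0 at both doses, but those of the dimmest were close to 0 (SE 0.07 at each dose). Of all tested probe sets 49.7% lay below 0 at the medium and 50.3% at the high dose. Probe sets of 1 gene on the same arrays do not give independent signs. Only the leading one reached an unadjusted p under 0.05 with the medium dose. Across the 36 samples the leading probe set correlated with the second tested one at Pearson r = 0.655, and with the other 3, from brightest to dimmest, at 0.812, 0.633 and 0.330. These correlations describe probe sets of 1 gene on the same arrays. Whether the probe sets detect different transcripts of CD55, or C4A probes a near-identical C4 copy, is not given by the annotation.

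**Figure D2:**
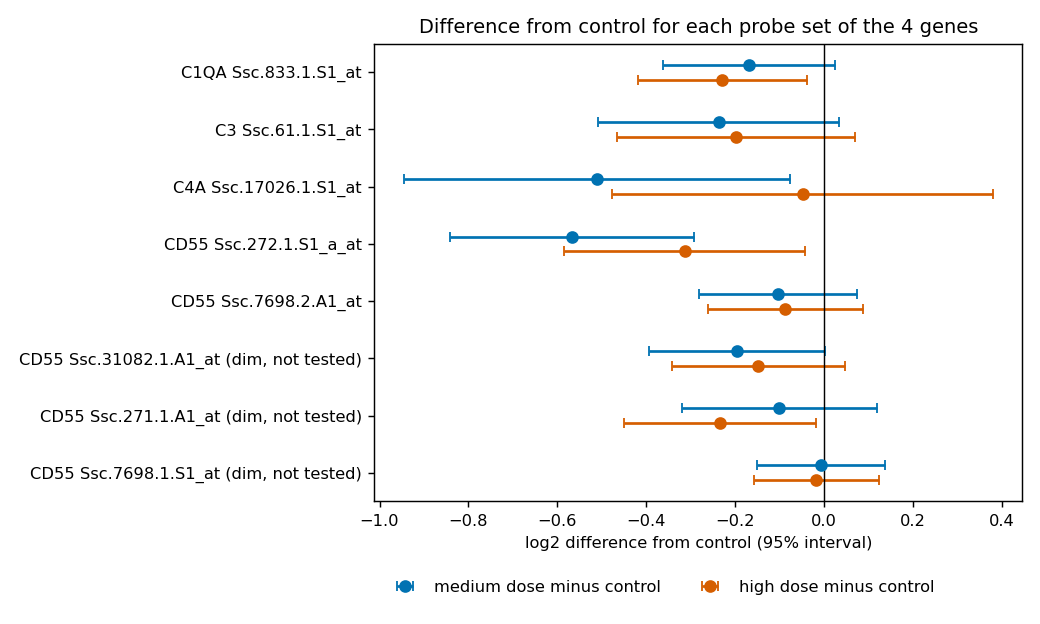
Log2 difference from control (x axis) with its 95% interval for each of the 8 member probe sets (y axis), for the medium and high doses, with the 3 unfiltered CD55 probe sets taken from a fit without the filter. The leading CD55 probe set lies farthest from 0 with the medium dose, at -0.57.

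The member levels were next set out by set code. Over the feeding groups, the set code differed at an unadjusted p under 0.05 for 3 of the 5 tested member probe sets, against 17.4% of all tested. These were C1QA (p = 0.0375), C4A (p = 0.0335) and the second CD55 probe set (p = 0.0265), all from limma's moderated F test. None passed after adjustment, where 2.62% of all probe sets did.

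Within S2, S3 and S4 the medium-dose mean of CD55 on its leading probe set lay below the control mean by -0.55, -0.53 and -0.97, and within S5 by -0.10. The high-dose differences of CD55 from S1 to S5 were -0.25, -0.38, -0.20, -0.50 and -0.15, all below 0. For C4A the medium-dose differences ran -0.53, -0.33, -1.53 and 0.05 from S2 to S5. The C4A high-dose differences were 1.05, -0.50, -0.27, -0.63 and 0.95 from S1 to S5, so they had no common direction. The S1 value includes high-dose replicate 2, the array that stood apart, with C4A at 8.4 against 7.5 in the other S1 high-dose sample. Its part in the difference was not tested within S1. Over all set codes C4A had a high-dose difference of -0.17 without that array. These values rest on 1 to 4 samples per group and set code. C3 was lower in the medium-dose mean by -0.35, -0.27 and -0.50 in S2 to S4 and higher by 0.30 in S5. C1QA had high-dose differences below 0 in every set code, from -0.45 in S1 to -0.12 in S3. The S1 value of C1QA also includes high-dose replicate 2, at 5.4 against 5.9 in the other S1 high-dose sample. Over all set codes the high-dose difference of C1QA was -0.18 without that array.

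Set S4 held the widest spread in the controls. C4A was 7.4, 9.0 and 8.5 in control replicates 8, 9 and 10, against 6.3, 7.3 and 6.7 in the medium-dose and 7.0, 8.0 and 8.0 in the high-dose samples of S4. CD55 was 5.4, 5.6 and 6.7 in those controls, against 4.7, 4.6 and 5.5 in the medium-dose samples. Control replicates 9 and 10 thus had the 2 highest C4A values of all 36 arrays. Control replicate 10, which also held the highest CD55 value, had the widest GAPDH 3′ minus 5′ difference of all arrays (1.4), the lowest average correlation among controls (0.9857) and no Dap. The mean of interferon response genes was 8.96, 8.72 and 8.38 in these S4 controls (replicates 8, 9 and 10), against 7.29, 7.60 and 7.53 in the S4 medium-dose samples. The part of these in the S4 difference of C4A was not tested. The effect of the medium dose itself differed between set codes for C4A at unadjusted p = 0.0265 and adjusted p = 0.769 in limma, where 6.21% of all tested had an unadjusted p under 0.05. For the high dose these were unadjusted p = 0.0318 and adjusted p = 0.9998, against 4.87%. Neither passed, and for C1QA, C3 and CD55 the unadjusted p-values of these interaction tests lay between 0.38 and 0.92.

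In the 26 arrays with the Dap control alone, the medium-dose differences were -0.54 for CD55, -0.65 for C4A, -0.37 for C3 and -0.20 for C1QA. The high-dose differences in those arrays were -0.20 for CD55, -0.29 for C4A, -0.37 for C3 and -0.23 for C1QA. C3, C4A and, by little, C1QA thus lay farther from control in these arrays than in all 36 at both doses, C4A with the high dose at -0.29 against -0.05. CD55 lay nearer to control at both doses, and none of these values passed after adjustment.

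**Figure D3:**
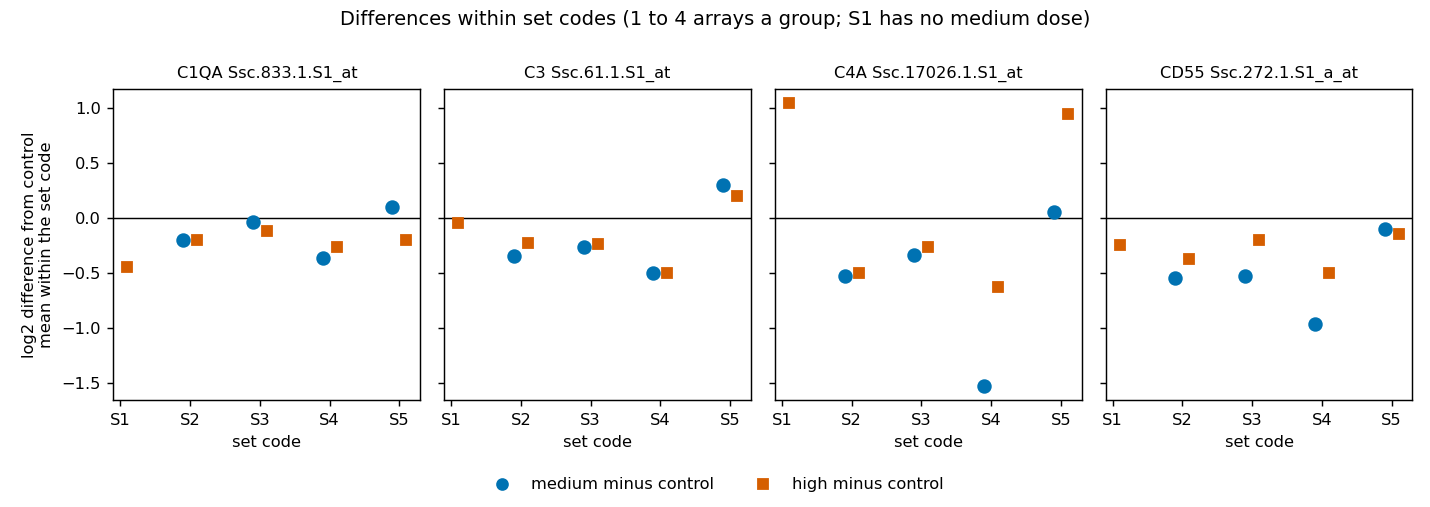
Difference from the control mean in log2 units (y axis) within each set code (x axis) for the leading probe set of each gene, medium and high dose. CD55 points lie below 0 in every set code, whereas those of C4A run from -1.53 to 1.05, each from 1 to 4 arrays per group.

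The other complement genes were read from a list of 50 symbols, of which 28 were on the array under 1 symbol and 18 passed the filter. With the medium dose 13 of the 18 lay below 0, with 4 lower and 1 higher at an unadjusted p under 0.05. Over all tested probe sets 49.7% lay below 0, 3.15% were lower and 3.78% higher at that threshold. Their median difference was -0.07, and none passed after adjustment. With the high dose 11 of the 18 lay below 0, none reached an unadjusted p under 0.05, and the median was -0.08. Over all tested probe sets 50.3% lay below 0 at that dose, 2.17% were lower and 2.77% higher at that threshold.

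Among recognition and early proteases of the classical pathway, C1QC, a further C1q chain, had a medium-dose difference of -0.26 (SE 0.12, unadjusted p = 0.0377). C1R, the protease that activates C1s, had -0.37 (SE 0.14, unadjusted p = 0.0138), and C1S, which cleaves C4, had -0.26 (unadjusted p = 0.0602). SERPING1, the inhibitor of C1r and C1s, was measured at 8.39 ± 0.29 in control and 8.13 ± 0.13 in medium-dose samples (SD, n = 12 each), a difference of -0.26 (SE 0.09, unadjusted p = 0.00466). At the high dose it was 8.32 ± 0.25 (SD, n = 12), which was 0.19 above the medium dose (unadjusted p = 0.0333). Inhibitor and proteases of C1 were thus on the same side of control as C4A with the medium dose.

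Of the membrane regulators besides CD55, CD59, which blocks the terminal complex, had a medium-dose difference of -0.25 (SE 0.09, unadjusted p = 0.00577). Its second probe set gave -0.29 (unadjusted p = 0.0101). CD46, a cofactor for cleavage of C3b and C4b, had -0.03. For high dose minus medium dose the CD59 probe sets gave 0.12 (unadjusted p = 0.175) and 0.32 (unadjusted p = 0.00533).

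CD93, a surface receptor first described as a C1q receptor and found on endothelium, had the smallest p of the listed genes. It was 9.35 ± 0.33 in control, 9.75 ± 0.23 in medium-dose and 9.48 ± 0.33 in high-dose samples (SD, n = 12 each). The medium-dose difference was 0.40 (SE 0.09, unadjusted p = 0.000166), and high dose minus medium dose was -0.29 (unadjusted p = 0.00403). Its second probe set gave 0.12 (unadjusted p = 0.113) for the medium dose and 0.21 (unadjusted p = 0.00758) for the high dose, so the probe sets disagreed on the dose. The complement receptors VSIG4 and ITGB2, both carried by phagocytes, had medium-dose differences of -0.28 and -0.15, with unadjusted p-values of 0.183 and 0.141. A second VSIG4 probe set gave -0.08 (limma, unadjusted p = 0.404) for the medium dose and 0.02 for the high dose.

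The alternative pathway genes CFB, CFD and CFP had medium-dose differences of -0.07, 0.12 and 0.10, and FCN2 of the lectin pathway had 0.11. CFB had a second probe set with a high-dose difference of 0.15 (unadjusted p = 0.0176), opposite in sign to the -0.09 of the first. C8B, C8G and C9 of the terminal complex had medium-dose differences of 0.04, -0.09 and 0.00. C8G was 0.19 higher in high-dose than medium-dose samples (unadjusted p = 0.0456), and 0.06 on its other probe set. C4BPA and CLU, fluid-phase regulators, had medium-dose differences of -0.03 and -0.07.

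In the pig genome (RefSeq, assembly Sscrofa 11.1) C1QA neighbours C1QC and C1QB, and CD55 lies between C4BPA and CR1. C4A lies between STK19 and CYP21A2. The neighbours on the tested list, C1QC and C4BPA, had medium-dose differences of -0.26 and -0.03 beside -0.17 for C1QA and -0.57 for CD55.

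Markers of cell types and of the interferon response were read beside the members. The mean of 11 measured microglia genes, of 21 listed, ranged from 7.25 to 8.14 in controls, from 7.15 to 7.73 in medium-dose and from 7.26 to 7.59 in high-dose samples. Its differences from control were -0.16 (SE 0.07) and -0.14 (SE 0.07), on the same side as the members. With that mean as a covariate the medium-dose difference was -0.50 for CD55, -0.23 for C4A, -0.06 for C1QA and 0.05 for C3. The unadjusted p-values (limma) were 0.00175, 0.258, 0.510 and 0.560 in that order. The sign of C3 thus turned, at a value not told apart from 0. With the high dose the difference was -0.25 for CD55, -0.13 for C1QA, 0.20 for C4A and 0.06 for C3. The signs of C4A and C3 turned there, at unadjusted p-values (limma) of 0.314 and 0.469.

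The mean of 27 measured interferon response genes, of 40 listed, ranged from 7.27 to 8.97 in controls, from 6.97 to 8.44 in medium-dose and from 7.05 to 8.95 in high-dose samples. Its differences were -0.50 (SE 0.18) and -0.15 (SE 0.18). With it as a covariate the medium-dose difference of C4A was -0.20 (unadjusted p = 0.351) in place of -0.51, and that of CD55 was -0.52 (unadjusted p = 0.00186). That fit took a single slope over all samples, although the interferon mean fell into separate clusters. C4A and the interferon mean had r = 0.451 in the 28 samples of the lower cluster and -0.39 in the 8 of the upper. The upper cluster held every S4 control and no S4 medium-dose sample, so the adjusted values are a description only. A covariate measured on the same arrays does not separate cause from effect. Oligodendrocyte markers (10 genes) differed by -0.21 (SE 0.12) with the medium dose, where 9 of the 10 lay below 0, and by -0.02 (SE 0.12) with the high dose. Astrocyte markers (8 genes) differed by -0.08 (SE 0.04) and -0.02 (SE 0.04), with 6 of the 8 below 0 at the medium dose. Both were thus on the same side as the members at the medium dose, where 49.7% of all tested lay below 0. In each of these lists 1 gene was lower and none higher at an unadjusted p under 0.05 (limma). Of all tested, 3.15% were lower and 3.78% higher at that threshold. Of the microglia and interferon genes, 10 of 11 and 27 of 27 lay below 0 with the medium dose. Neuron markers (7 genes) differed by 0.05 (SE 0.10) and 0.01 (SE 0.10). Endothelial markers (13 genes) differed by -0.04 (SE 0.06) and 0.07 (SE 0.06), and blood cell markers (4 genes) by 0.06 (SE 0.04) and -0.03 (SE 0.04). The part of the oligodendrocyte, astrocyte, neuron, endothelial and blood cell lists in the member differences was not tested.

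Relations between the members and with the list means were computed over the 36 samples, with p-values adjusted over a family of 14 that included 4 with the interferon mean. Of the 10 without it, 8 had an adjusted p under 0.05. Without the 2 samples farthest from the median 4 of those 8 did, and on residuals of the fit of group and set code 4 did. C3 and the microglia mean had Pearson r = 0.861 (permutation p = 1e-05, adjusted p = 7e-05) and Spearman rho = 0.689 (permutation p = 1e-05), where 1e-05 is the smallest p that the resamples can give. Without control replicates 9 and 10, the samples farthest from the median of the microglia mean, r was 0.729. It was 0.654 in S2, 0.811 in S3 and 0.985 in S4, and 0.883 and 0.806 in arrays with and without the Dap control. Within feeding groups r was 0.941 in control, 0.869 in medium-dose and 0.339 in high-dose samples. S1 and S5 held too few samples for a value.

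C4A and the microglia mean had r = 0.65 (permutation p = 2e-05, adjusted p = 9.33e-05), or 0.424 without 2 samples, and Spearman rho = 0.554 (permutation p = 0.00058). Within S2, S3 and S4 r was 0.716, 0.189 and 0.801, and with and without the Dap control it was 0.699 and 0.640. C1QA and the microglia mean had r = 0.603 (permutation p = 0.00018, adjusted p = 0.000504), or 0.421 without 2 samples, and Spearman rho = 0.547 (permutation p = 0.00077). Within S2, S3 and S4 this r was 0.234, 0.501 and 0.776, and with and without the Dap control it was 0.646 and 0.413. CD55 and the microglia mean had r = 0.461 (permutation p = 0.00776, adjusted p = 0.0155) with a Spearman rho of 0.475 (permutation p = 0.00377), while r was 0.349 without 2 samples and 0.199 on residuals. Within S2, S3 and S4 it was 0.283, 0.549 and 0.462, and with and without the Dap control it was 0.398 and 0.702.

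The members were also related among themselves. C3 and C4A had r = 0.605 (permutation p = 0.00013, adjusted p = 0.000455) with a Spearman rho of 0.456 (permutation p = 0.00572). Without control replicates 9 and 10 this r was 0.352, and within S2, S3 and S4 it was 0.459, 0.238 and 0.738. With and without the Dap control it was 0.625 and 0.614. C1QA and C3 had r = 0.434 (permutation p = 0.0116, adjusted p = 0.0186) with a Spearman rho of 0.340 (permutation p = 0.0446), but r = 0.105 without medium-dose replicate 7 and control replicate 9, so that relation rests on those samples. Within S2, S3 and S4 it was -0.04, -0.03 and 0.816, and with and without the Dap control it was 0.590 and -0.04. C4A and CD55 had r = 0.478 (permutation p = 0.00374, adjusted p = 0.00873) and a Spearman rho of 0.405 (permutation p = 0.0152), with r = 0.401 without 2 samples and 0.261 on residuals. Within S2, S3 and S4 it was 0.334, 0.353 and 0.641, and with and without the Dap control it was 0.389 and 0.582. C3 and CD55 had r = 0.394 (permutation p = 0.0229, adjusted p = 0.032) and a Spearman rho of 0.449. Without 2 samples that r was 0.339, and on residuals 0.211. C1QA did not pass on r with CD55 (r = 0.318, permutation p = 0.0611, adjusted p = 0.0778) or C4A (r = 0.241, permutation p = 0.158). For C1QA with CD55 the Spearman rho was 0.407 (permutation p = 0.0144, adjusted p = 0.0213).

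The interferon mean fell into separate clusters of samples, so no pooled correlation is given for it. Of the 36 samples 28 lay between 6.97 and 7.86 and 8 between 8.37 and 8.97, the latter being 4 control, 1 medium-dose and 3 high-dose samples. All 8 were in S4 (5 of its 9 samples) or S5 (3 of its 5), and they included all 3 S4 controls and no S4 medium-dose sample. Among the 28, C4A and the interferon mean had r = 0.451 (permutation p = 0.0156, adjusted p = 0.0622 over 8 relations), or 0.471 without 2 samples, and Spearman rho = 0.450 (permutation p = 0.0176). Among the 8, r was -0.39 (exact permutation p = 0.328). C3 had r = 0.499 (permutation p = 0.00672, adjusted p = 0.0538) among the 28 and r = -0.39 (exact permutation p = 0.365) among the 8. CD55 had r = 0.052 (permutation p = 0.791) and r = -0.60 (exact permutation p = 0.0729) in the same samples. None of the 8 relations passed after adjustment. This clustering was seen in the data, and the split was chosen afterwards.

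**Figure D4:**
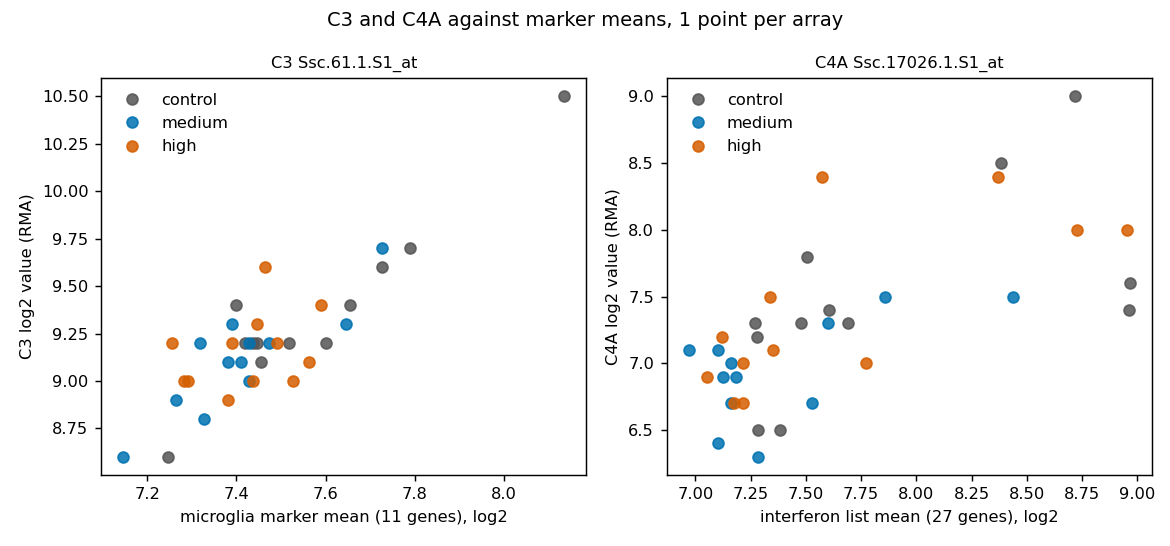
C3 level against the microglia marker mean of 11 genes (left) and C4A level against the interferon list mean of 27 genes (right), all in log2 units, 1 point per array, coloured by feeding group. The C3 points follow the marker mean, with control replicate 9 at 10.5 far above the rest, and the interferon mean has a gap between 7.86 and 8.37.

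The genes whose levels ran most like each member were ranked by Pearson r over the 36 samples, as a description of arrays that share their processing. C1QA was most like C1QC at r = 0.807, followed by the microglial purinergic receptor P2RY12 at 0.746, CD53 at 0.672, HIST1H2BD at 0.642 and ARPC1B at 0.637. On residuals of group and set code the first 2 values were 0.768 and 0.675. P2RY12 itself had differences of -0.27 (medium dose, unadjusted p = 0.0172) and -0.35 (high dose, unadjusted p = 0.00217), neither past adjustment. C3 was most like RGS10 at 0.872, CD53 at 0.842, LAPTM5 at 0.837, BIN2 at 0.825 and BLNK at 0.819. Of the 11 microglia genes 8 had r above 0.5 with C3, against 2.15% of all named probe sets tested.

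C4A was most like other genes of the classical pathway. SERPING1 came first at r = 0.869, C1S followed at 0.830 and C1R at 0.829, then ID3 at 0.780 and SP140 at 0.757. On residuals the first 3 were 0.798, 0.776 and 0.749. CD55 had weaker partners: RAE1 at 0.632, HDAC1 and NOSTRIN at 0.608, JARID2 at 0.606 and MEIS2 at 0.604. On residuals these were 0.637 for RAE1, 0.559 for HDAC1, 0.377 for NOSTRIN, 0.693 for JARID2 and 0.474 for MEIS2. NOSTRIN itself had a medium-dose difference of -0.47 (limma, unadjusted p = 0.000226, adjusted p = 0.407). Only 0.514% of named probe sets had r above 0.5 with CD55, against 2.32% with C4A and 1.02% with C1QA. CD93 had r = -0.55 with C4A and -0.51 with CD55, but -0.17 and -0.16 on residuals.

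**Figure D5:**
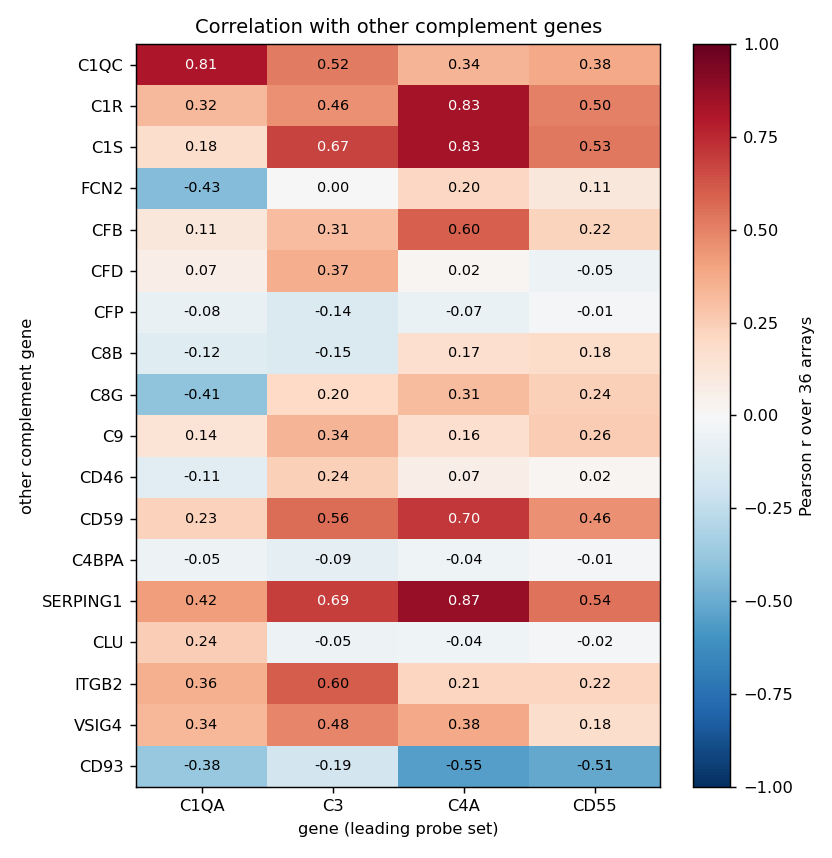
Pearson r over 36 arrays between each of the 18 other tested complement genes and the 4 members, shown as a colour scale. C4A has its highest values with SERPING1, C1S and C1R (0.869, 0.830 and 0.829), C1QA with C1QC (0.807), and CD93 lies below 0 with C4A and CD55 (-0.17 and -0.16 on residuals, not drawn).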

How the data were processed

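RNA of 36 hippocampus samples was measured on Affymetrix porcine arrays, 1 array per sample. The deposited table holds log2 values, 1 per probe set, rounded to 1 decimal. Per the submitters' processing notes the tools were RMA and Affymetrix Expression Console 1.1. RMA subtracts background, gives all arrays 1 distribution and fits the probes of each set together, so a shift common to all probe sets would be removed. Precision is limited by how many arrays there are. The array's annotation supplied gene names, with 10069 of 23999 probe sets tied to 1 symbol, 198 to several and 13732 to none. Of the 10069, 9961 had a gene ID found in RefSeq and took the symbol given there, whether or not it differed. The 124 array controls and probe sets below the 25th percentile were left out of tests.

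All 18006 probe sets were fitted in R 4.3.3 with limma 3.58.1 (lmFit, eBayes), with feeding group and set code as fixed terms, two-sided, Benjamini-Hochberg over 18006. F tests gave set code effects and interactions. Where a listed gene had several probe sets, the one of highest mean was used. The pipeline was tested on simulated data. Relations used 100000 resamples, two-sided. Relations and figures used Python 3.11.15, numpy 2.4.6 and matplotlib 3.10.9.

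Named are all member probe sets, listed complement genes with unadjusted p under 0.05 in any contrast or among the 3 smallest of their role, the 5 genes most like each member, and up to 3 genes per marker list most like a member. The members and lists were chosen with earlier results of these data known. Alternatives were other blocks, filters, normalisations, weights, covariates, samples left out and set codes left out. Added after seeing the data were leaving out control replicates 9 and 10 together, arrays with Dap alone, and the split of the interferon mean.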

Additional observations from a re-analysis of the deposited data

Results flagged for a closer look

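Within set codes of 4 to 10 samples, 25 combinations of member probe set and set code were looked at for a sample standing far from the others, and 4 had one. Chance gives about 1 in 20 for independent normal values of a single group. Here each set code mixes feeding groups, values are rounded to 1 decimal and the combinations share arrays. The count therefore cannot be set against that rate. C1QA in S4 was 6.8 in control replicate 9, where the nearest of the 9 samples was 6.2. CD55 on its leading probe set in S4 was 6.7 in control replicate 10, with the nearest at 5.6. C4A in S2 was 7.8 in control replicate 4, with the nearest of 10 samples at 7.2. C4A in S5 was 8.4 in high-dose replicate 12, with the nearest of 5 samples at 7.6. Each was the highest of its set code, and 3 of the 4 were controls. Control replicate 10 also had the widest GAPDH 3′ minus 5′ difference of all arrays (1.4), an average correlation with the other arrays of 0.9857, the lowest among controls, and no Dap spike-in control. Control replicate 4 had 1.2 and 0.9871 on these measures, and Dap was present. Control replicate 9 had 1.0 and 0.9908, and high-dose replicate 12 had 1.1 and 0.9908 with no Dap. The part of these measures in the values was not tested.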

How the results depend on the processing

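No member probe set passed an adjusted p of 0.05 for any group contrast in any of the alternatives. C4A with the high dose minus control (-0.05) had its sign turned with a replicate block besides the set code (0.0295), the microglia mean (0.20) or interferon mean (0.0459) as covariate, without S2 (0.13), without S4 (0.16), and without control replicates 9 and 10 together (0.21), and leaving out each sample gave -0.17 to 0.0801. C3 turned with the microglia covariate at the medium (0.0468) and high (0.0566) dose. C3 for high minus medium dose turned with the replicate block (-0.0032) and without S2 (-0.0096). CD55 on its second probe set for that contrast turned with quantile normalisation (-0.0028) and without S4 (-0.0856), and leaving out each sample gave -0.0299 to 0.0657. The relation of C1QA with C4A, r = 0.241, was -0.0437 without the 2 samples farthest from the median. Over the whole family of 14 relations, which includes pooled ones with the interferon mean whose samples cluster, 10 had an adjusted p under 0.05, 6 of these also without 2 samples, and 5 on residuals. Of the 10 relations without the interferon mean these counts were 8, 4 and 4. A filter at the 50th percentile gave no value for C1QA and CD55, which it leaves out.

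Replicate numbers 1 to 12 are shared by the groups. Same-numbered samples deviated together (r over 0.1) in only 2, 4 and 2 of 12 pairs, so no pairing by number was seen. These r values cannot exclude a pairing, since same-numbered samples can carry different set codes. Blocking by replicate number instead of set code gave -0.55 for CD55 on its leading probe set with the medium dose and 0 members past adjustment.

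Over all probe sets, the count past adjustment for medium dose minus control was 0, but 11 in a fit of those 2 groups alone, 4 without S1 and 1 without medium-dose replicate 12. For high minus medium dose, and for any difference, it was 1 without medium-dose replicate 11.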
